A study of Mus musculus with 9 samples.

Results

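Gene expression in the mouse submandibular salivary gland was compared between 60 and 30 days after 10 Gy of radiation, with 3 libraries per time point. The model was fitted over all 9 libraries listed for the series, so the 90-day libraries also enter the filter and the estimated spread. All 9 samples carry the genotype WT and the treatment "10 Gy radiation", so both groups were irradiated and differ by label in time alone. Age, sex, time of day at harvest and library batch are not in the labels, and time since irradiation cannot be told apart from the age of the mice. Libraries came from total RNA of 4 sections of gland, each 50 µm thick. The labels do not say that samples came from separate animals, so p-values measure the spread between samples within each time point, 90 days included. Of 54532 genes in the table, 15224 had adequate counts and were tested, and every one of them belongs to the comparison.

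The 30-day libraries held 16541396 to 17179500 counts and the 60-day libraries 21722141 to 24880803, so that depth moves with the time point. With every library thinned to an equal total, 223 genes changed in place of the 238 below. The 30-day sample 1 stood apart from the other libraries on the leading principal component, at -54.42 against -15.46 to 7.992 for the other 5, and a single secretory gene, Mucl2, took 42.76% of its counts against 32.77% to 39.56% in the others. Xist was counted in all 9 libraries, and the Y-linked genes Ddx3y, Eif2s3y, Kdm5d and Uty had 0 counts in each, which allows at most 0.101 to 0.213 CPM (a gene's count per library total after TMM scaling) at a floor of 3 counts. In bulk tissue, fewer cells of a type and less RNA per cell cannot be told apart.

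The submandibular gland holds acini, which make the primary saliva, and ducts, which change its salt content and, in rodents, include granular convoluted ducts that store growth factors and kallikreins. Secretion is driven by muscarinic receptors through calcium and by beta-adrenergic receptors through cyclic AMP (cAMP). Growth factor receptors signal through the kinase ERK, which switches on immediate early genes within minutes and, more slowly, feedback genes such as the dual specificity phosphatases that remove phosphate from MAP kinases. Radiation activates p53, whose targets arrest the cell cycle and repair DNA.

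Between 30 and 60 days, 238 of 15224 genes changed (1.56%), by edgeR's quasi-likelihood test with a Benjamini-Hochberg adjusted p under 0.05. Of these, 173 rose (1.14%) and 65 fell (0.427%). In each of the 238 the 3 values at 60 days did not overlap the 3 values at 30 days. Such separation was common: over all 15224 genes it was found in 1317 higher and 1251 lower at 60 days. It goes with being called and adds no support to a call. The median log2 fold change over all tested genes was -0.00246, and 72 of the changed genes moved by at least 1 on that scale. Over all 15224 genes 49.6% had a positive log2 fold change, and 978 were higher and 905 lower at an unadjusted p under 0.05. Counts within the gene lists below stand beside these values and the shares of 1.14% and 0.427%. Proteins were coded by 164 of the genes that rose and 59 of those that fell. Leaving out 30-day sample 1 gave 102 changed genes, 84 up and 18 down, and leaving out 60-day sample 2 gave 73, 65 up and 8 down. Scaling by library size alone gave 90, 79 up and 11 down, and moved the median of all genes to 0.0475. The 15 alternatives refit the same counts of genes whose groups do not overlap, so a direction could hardly turn, and none did. All 15 alternatives kept 56 of the 238 calls, 51 of them rises and 5 falls.

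**Figure D1:**
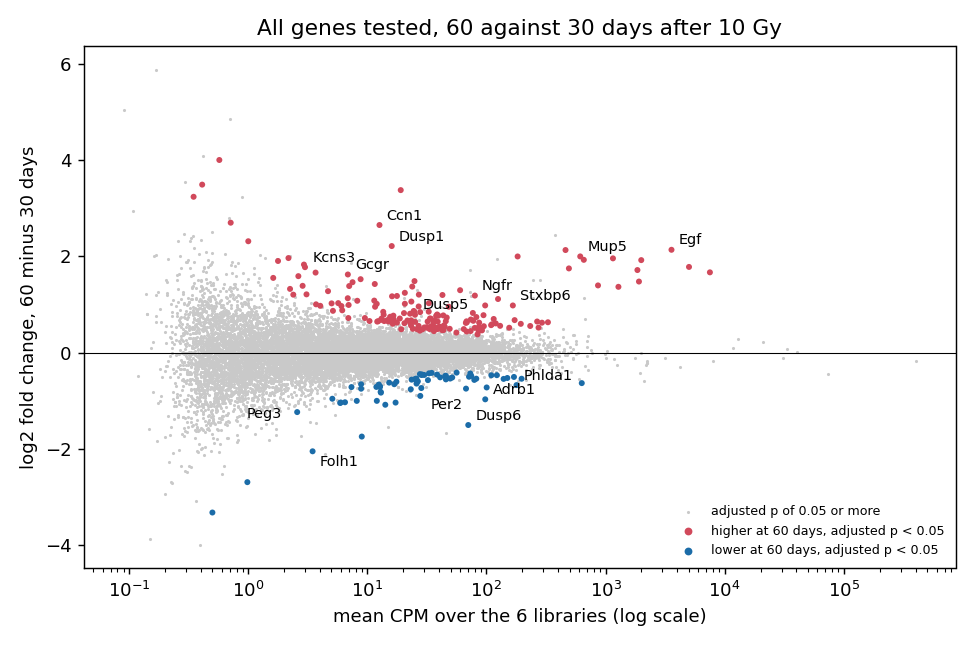
Each point is a gene tested. The x axis is its mean CPM over the 6 libraries on a log scale and the y axis its log2 fold change from 30 to 60 days; red marks the 173 genes higher and blue the 65 genes lower at an adjusted p under 0.05. Among the labelled genes Ccn1, Dusp1 and Egf lie highest and Folh1 and Dusp6 lowest.

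The smallest p-values of the comparison belonged to Ccn1 and Dusp6, genes of growth factor signalling that changed in opposite directions. Ccn1, Dusp1 and Dusp5 rose, while Dusp6 and some other genes of ERK output fell. The upstream sequences of these 4 genes are shown because their products or their regulation belong to MAP kinase signalling and their counts moved in opposite directions. Each is 200 bases of GRCm38.p6 from RefSeq, read 5′ to 3′ on the gene's strand, and runs from base 250 to base 51 before the RefSeq start. Capitals mark matches on either strand to the cAMP response element TGACGTCA or its short form TGACG, the AP-1 site TGANTCA with C or G at N, the CArG box of serum response factor, the TEAD box GGAATG, the hexamer TGTTCT of glucocorticoid receptor sites, and the E-box CACGTG. The short form overlaps the whole cAMP response element.
Ccn1, chr3:145650036-145650235, minus strand: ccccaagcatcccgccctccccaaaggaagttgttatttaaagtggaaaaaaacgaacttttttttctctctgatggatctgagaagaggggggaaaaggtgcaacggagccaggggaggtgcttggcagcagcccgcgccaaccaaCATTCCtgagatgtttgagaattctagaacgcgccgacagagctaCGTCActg
Dusp1, chr17:26508523-26508722, minus strand: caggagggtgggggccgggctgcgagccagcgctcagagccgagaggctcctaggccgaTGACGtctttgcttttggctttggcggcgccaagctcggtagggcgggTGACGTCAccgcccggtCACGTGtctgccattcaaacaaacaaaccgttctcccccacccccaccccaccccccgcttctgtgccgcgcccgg
Dusp5, chr19:53528895-53529094, plus strand: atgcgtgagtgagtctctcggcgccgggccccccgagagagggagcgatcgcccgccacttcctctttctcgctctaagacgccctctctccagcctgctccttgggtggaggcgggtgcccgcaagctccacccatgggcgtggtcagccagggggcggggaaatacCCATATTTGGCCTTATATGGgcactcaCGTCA
Dusp6, chr10:99262981-99263180, plus strand: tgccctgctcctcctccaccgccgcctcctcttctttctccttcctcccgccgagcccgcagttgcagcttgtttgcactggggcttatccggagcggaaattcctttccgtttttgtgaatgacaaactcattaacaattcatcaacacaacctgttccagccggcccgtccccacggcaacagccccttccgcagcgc
Dusp1 holds a whole cAMP response element that begins 143 bases before the start and an E-box at 126. Dusp5 holds CArG boxes at 82 and 72 bases and a short cAMP element at 55. Ccn1 holds a TEAD box at 103 and a short cAMP element at 58. These letters do not occur in the Dusp6 window.

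Across the table the motifs were described by their shares in the 250 bases before each start. Promoters were found for 188 of the 238 changed genes, 141 that rose and 47 that fell. Some genes have several, and the shares are over 202 promoters of genes that rose and 56 of those that fell. The rarer motifs thus rest on few promoters: the whole cAMP response element on 7 and 4, the CArG box on 5 and 2. The whole cAMP response element was in 3.47% of promoters of genes that rose, 7.14% of those that fell and 2.43% of all 14096 promoters of tested genes. Shares of the TEAD box were 17.8%, 14.3% and 10.9%, and shares of the CArG box were 2.48%, 3.57% and 1.16%, in the same order. The AP-1 site was in 4.95%, 5.36% and 3.36%, the glucocorticoid hexamer in 15.8%, 7.14% and 11.1%, and the E-box in 7.43%, 7.14% and 8.03%. The short cAMP form was in 16.8% and 21.4% of promoters of changed genes and in 25.2% of all. A match is a description of letters, and no test was made of these shares.

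Ccn1, a matrix protein that binds integrins (ENSMUSG00000028195, chromosome 3, 145646976 to 145649981, GRCm38), measured 3.47, 3.51 and 3.43 CPM in the 30-day samples and 21.1, 19.4 and 25.1 CPM in the 60-day samples. The 3 values at 30 days were nearly equal and far below every value at 60 days. The log2 fold change was 2.65 ± 0.17 (SE; adjusted p = 3.35e-08). At 90 days its mean was 6.56 CPM. The other genes of the CCN and YAP/TEAD list, targets and parts of the Hippo pathway, had few calls: of 25 tested, 2 rose and 0 fell, Ccn1 included, with a median log2 fold change of 0.109. The other rise was that of Tgfb2, and Ccn2, the close relative of Ccn1, measured 11.9, 8.26 and 14.4 CPM against 12.7, 15.6 and 18.9 CPM (adjusted p = 0.475).

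Dusp1, a nuclear phosphatase that acts on p38, JNK and ERK, had 3.97, 6.78 and 6.22 CPM at 30 days and 21.4, 19.1 and 38.8 CPM at 60 days. The 60-day sample 3 was far above the other 60-day values, and the groups did not overlap. The log2 fold change was 2.21 ± 0.30 (SE; adjusted p = 0.00394). Dusp5, a nuclear phosphatase specific to ERK, went from 16.7, 14.9 and 14.1 CPM to 31.5, 30.6 and 32.9 CPM, a rise of 1.06 ± 0.16 (log2, SE; adjusted p = 0.00219). The mean of Dusp5 at 90 days was 10.8 CPM and that of Dusp1 was 6.80 CPM.

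Dusp6, the cytoplasmic ERK phosphatase that ERK itself induces (ENSMUSG00000019960, chromosome 10, 99263231 to 99267489), measured 114, 97.6 and 101 CPM at 30 days and 34.7, 36.5 and 38.7 CPM at 60 days. Every 60-day value was far below every 30-day value. The log2 fold change was -1.51 ± 0.12 (SE; adjusted p = 6.75e-07), and the mean at 90 days was 88.4 CPM. Of 10 MAP kinase phosphatase genes tested, Dusp1 and Dusp5 rose, Dusp6 fell and 7 did not pass, with a median log2 fold change of 0.138. This split of 2 up and 1 down was found in all 15 alternatives.

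**Figure D2:**
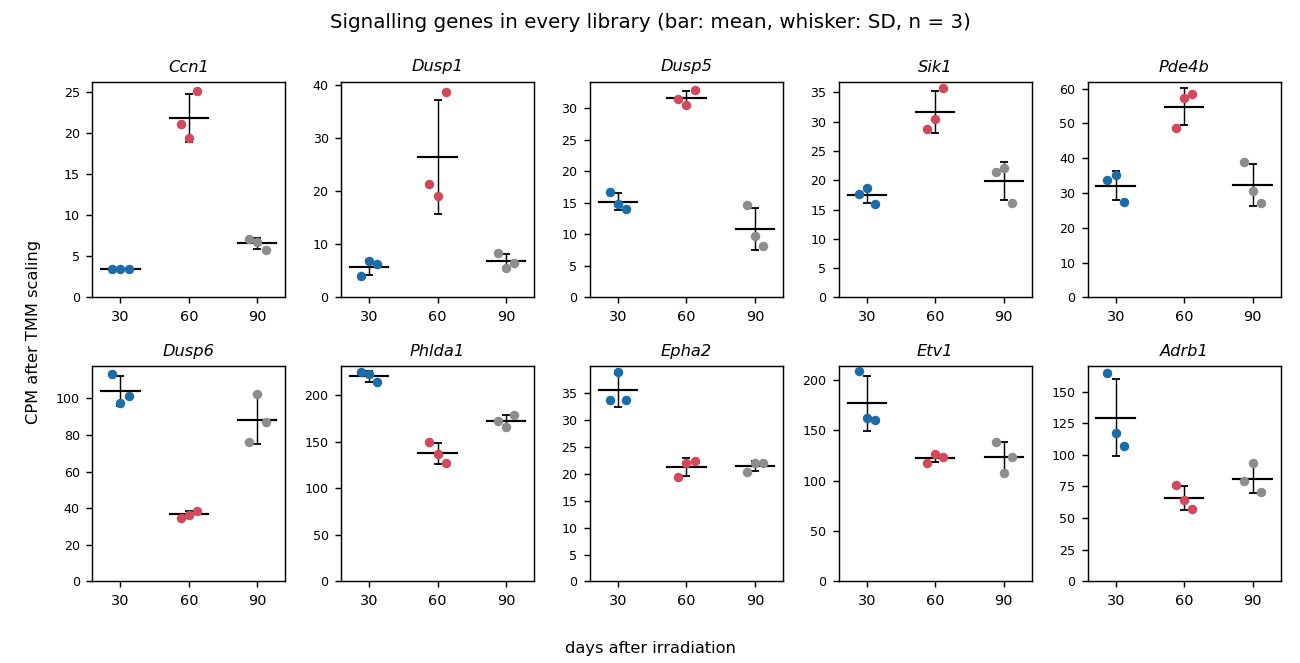
CPM of 10 signalling genes in each library by days after irradiation, with points for samples, a bar for the mean and whiskers for the SD (n = 3). Ccn1, Dusp1, Dusp5, Sik1 and Pde4b are higher at 60 than at 30 days and Dusp6, Phlda1, Epha2, Etv1 and Adrb1 lower, with no overlap; the 90-day libraries are shown for reference.

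Some other genes of ERK output fell with Dusp6. Of 21 ERK output and feedback genes tested, 0 rose and 4 fell, 17 had a negative log2 fold change and the median was -0.372. The highest log2 fold change in the list was 0.256. Ccn1, Dusp1 and Dusp5, which rose, are not in it, so its 0 rises depend on the choice of members. Phlda1, which responds to growth factors, went from 224, 222 and 214 CPM to 149, 136 and 127 CPM (-0.68 ± 0.10, SE; adjusted p = 0.00139). Epha2, an ephrin receptor kinase, went from 33.7, 39.0 and 33.8 CPM to 19.4, 22 and 22.4 CPM (-0.74 ± 0.11, SE; adjusted p = 0.00166). Etv1, an ETS transcription factor, went from 208, 163 and 160 CPM to 118, 126 and 123 CPM (-0.53 ± 0.12, SE; adjusted p = 0.0297). In these 3 genes the 30-day samples were all above the 60-day samples. Sprouty genes, which dampen receptor signalling, did not pass, with log2 fold changes of -0.39 for Spry1 (adjusted p = 0.28), -0.33 for Spry2 (adjusted p = 0.30) and -0.61 for Spry4 (adjusted p = 0.42). Under library-size scaling 2 of the 21 genes fell, the calls for Epha2 and Etv1 being lost. The call for Etv1 was also lost without 30-day sample 1 or 2 and without any of the 60-day samples, and its adjusted p ran from 0.00101 to 0.238 over the alternatives.

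Immediate early genes had calls in both directions. Of 35 tested, 3 rose and 1 fell, and the median log2 fold change was 0.0974. Besides Ccn1 and Dusp1, the stress gene Gadd45g rose from 11.1, 11.9 and 11.6 CPM to 21.9, 17.0 and 16.6 CPM (0.68 ± 0.16, SE; adjusted p = 0.0364). Ier5 fell from 12.8, 18.6 and 18.5 CPM to 12.6, 7.82 and 7.72 CPM (-0.83 ± 0.19, SE; adjusted p = 0.0370), and its lowest 30-day and highest 60-day values were almost equal. The calls for Gadd45g and Ier5 were each lost under 7 of the 15 alternatives. The immediate early list had 2 rises and 0 falls without 30-day sample 2 or 3 or with library-size scaling, 5 and 3 with DESeq2, and 6 and 2 with no filter on low counts. The classical members did not pass. Fos had 2.55, 5.77 and 4.26 CPM against 2.72, 2.49 and 2.21 CPM (adjusted p = 0.244). Egr1 had 7.66, 33.6 and 25.1 CPM against 7.68, 8.82 and 6.38 CPM (adjusted p = 0.297), and its 30-day sample 1 lay among the 60-day values.

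Genes of the cAMP pathway also changed. The list holds targets of the transcription factor CREB, which cAMP activates, together with cAMP receptors and phosphodiesterases, and 4 of 22 genes tested rose and 1 fell, with a median log2 fold change of 0.318. Sik1, a kinase that CREB induces and that dampens CREB's coactivators, went from 17.7, 18.6 and 15.9 CPM to 28.7, 30.5 and 35.7 CPM (0.86 ± 0.14, SE; adjusted p = 0.00212). Pde4b, which breaks down cAMP, went from 33.7, 35.2 and 27.4 CPM to 48.7, 57.3 and 58.4 CPM (0.77 ± 0.13, SE; adjusted p = 0.00441). Its relative Pde4d rose by 0.67 ± 0.16 (SE; adjusted p = 0.0364), a call kept in 8 of 15 alternatives. Dusp1 is the other riser. Without 60-day sample 2 the list had 3 rises and 0 falls. The later fall of Sik1 to 19.9 CPM and of Pde4b to 32.2 CPM at 90 days passed the test too (adjusted p = 0.0350 and 0.0138), among 39 genes (0.256%) that differed between 60 and 90 days. Such a later change was not particular to the cAMP list. Ccn1, Dusp1, Dusp5 and Gadd45g also fell and Dusp6 rose from 60 to 90 days (adjusted p from 8.51e-06 to 0.0181). Of genes named below, Bhlha15 fell and Hes1 and Sox18 rose (adjusted p = 0.00581, 0.00241 and 0.00342). Steps that share the 60-day libraries are not independent.

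The receptor that raises cAMP in salivary cells fell. Adrb1, the beta-1 adrenergic receptor, had 164, 117 and 107 CPM at 30 days and 76.4, 64.2 and 57.2 CPM at 60 days. Every 30-day sample was above every 60-day sample, and 30-day sample 1 was the highest. The log2 fold change was -0.97 ± 0.16 (SE; adjusted p = 0.00593), a call lost only without 60-day sample 2, where the adjusted p reached 0.0537, the highest of the 15 alternatives. Rapgef3, the cAMP-activated exchange factor for Rap1 also known as Epac, fell from 139, 105 and 131 CPM to 77.4, 78.6 and 71.1 CPM (-0.73 ± 0.13, SE; adjusted p = 0.00410). Its call held in all 15 alternatives; the gene is in no list and was named after its values were seen. The glucagon receptor Gcgr, which also couples to cAMP, rose from 2.62, 3.80 and 3.61 CPM to 10.9, 11.9 and 8.30 CPM (1.62 ± 0.20, SE; adjusted p = 0.000202).

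Muscarinic receptors and their calcium machinery, which the study's title concerns, had a single call. Of 30 genes tested 1 rose and 0 fell, with 21 negative log2 fold changes and a median of -0.0627, and 0 rose with library-size scaling, without 30-day sample 1 or without 60-day sample 2. The riser was Calm2, 1 of 3 genes for calmodulin, with 216, 236 and 223 CPM against 325, 356 and 286 CPM (0.52 ± 0.12, SE; adjusted p = 0.0327), a call lost under 6 alternatives. Chrm3, the main muscarinic receptor of acini, had 36.7, 32.5 and 30.1 CPM against 25.6, 30.5 and 26.6 CPM (adjusted p = 0.356). Chrm1 had 5.88, 6.0 and 6.22 CPM against 5.48, 5.52 and 5.55 CPM (adjusted p = 0.836). Among 18 genes of fluid secretion 0 rose and 0 fell, with 2 higher and 3 lower at an unadjusted p under 0.05, and DESeq2 and limma-voom each gave 1 fall.

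Targets and partners of steroid and growth hormones rose in part. Of 19 glucocorticoid-induced genes tested 3 rose and 1 fell, with a median log2 fold change of 0.194. Sgk1, a kinase that keeps the epithelial sodium channel at the membrane, went from 64.9, 69.7 and 74.3 CPM to 109, 123 and 126 CPM (0.78 ± 0.12, SE; adjusted p = 0.00139). Cebpd, a transcription factor of the acute phase, went from 11.8, 9.33 and 11.5 CPM to 27.5, 23.8 and 22.4 CPM (1.18 ± 0.18, SE; adjusted p = 0.00219). Dusp1 is the other riser. Tsc22d3 and Fkbp5, commonly used reporters of the receptor, had log2 fold changes of 0.33 (adjusted p = 0.24) and 0.19 (adjusted p = 0.60). With no filter on low counts 5 of the glucocorticoid-induced genes rose and 2 fell. Of 16 hormone receptor and hormone-converting genes 2 rose and 0 fell. Hsd11b1, which regenerates active glucocorticoid, went from 17.9, 28.9 and 31.0 CPM to 62.5, 65.7 and 50.6 CPM (1.2 ± 0.20, SE; adjusted p = 0.0131). Ghr, the growth hormone receptor, went from 56.7, 52.7 and 52.0 CPM to 81.3, 92.6 and 75.8 CPM (0.63 ± 0.11, SE; adjusted p = 0.00366). In both genes all 60-day samples were above all 30-day samples, and Ghr was called in all 15 alternatives, while Hsd11b1 lost the call without 60-day sample 1 or 2 (adjusted p up to 0.0955).

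Transcription factor genes changed at about the rate of all genes. Of 771 tested in the 12 families, 6 rose and 4 fell, which is 1.30% against 1.56% of all genes, and the median log2 fold change was -0.0472. Of the risers, 5 belong to the family with a basic leucine zipper. Besides Cebpd, these included Maf, known in several tissues for its part in differentiation (10.6, 11.5 and 14.7 CPM against 22.1, 26 and 39.1 CPM; 1.24 ± 0.25, SE; adjusted p = 0.0362). They also included Nfe2l3 (0.85 ± 0.16, SE; adjusted p = 0.00640) and Creb3l2, a regulator of secretory capacity anchored in the endoplasmic reticulum (70.2, 56.9 and 60.1 CPM against 82.3, 87.9 and 84.8 CPM; 0.45 ± 0.11, SE; adjusted p = 0.0384). Outside that family, Esrrg, a nuclear receptor that drives mitochondrial and ion transport genes, rose from 100, 106 and 111 CPM to 132, 155 and 178 CPM (0.56 ± 0.12, SE; adjusted p = 0.0192).

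The factors that fell were Etv1, Hes1, Peg3 and Zfp692. Hes1, a repressor that Notch induces, went from 29.7, 34.9 and 27.2 CPM to 21.6, 21.7 and 19.9 CPM (-0.54 ± 0.12, SE; adjusted p = 0.0211), with a mean of 36.2 CPM at 90 days. Peg3, an imprinted zinc finger gene, went from 3.33, 3.45 and 4.08 CPM to 1.25, 1.85 and 1.5 CPM (-1.24 ± 0.28, SE; adjusted p = 0.0295). Zfp692 went from 26.7, 28.2 and 29.3 CPM to 16.1, 18.9 and 22.1 CPM (-0.56 ± 0.14, SE; adjusted p = 0.0467). The SOX family had 0 calls by edgeR or DESeq2 among 11 genes, with 9 negative and 4 lower at an unadjusted p under 0.05, and the forkhead family 0 among 22, with 2 higher and 7 lower at that level. Of the factors named here, only Cebpd was called in all 15 alternatives. Nfe2l3 lost the call only without 60-day sample 2, and Maf, Creb3l2, Esrrg, Etv1, Hes1, Peg3 and Zfp692 lost it under 5 to 7 alternatives, library-size scaling among them. The acinar factor Bhlha15, also called Mist1, had 380, 378 and 338 CPM against 567, 495 and 470 CPM, with no overlap, and an adjusted p of 0.0572 (0.00155 to 0.198 over the alternatives, 5 of which called it).

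**Figure D3:**
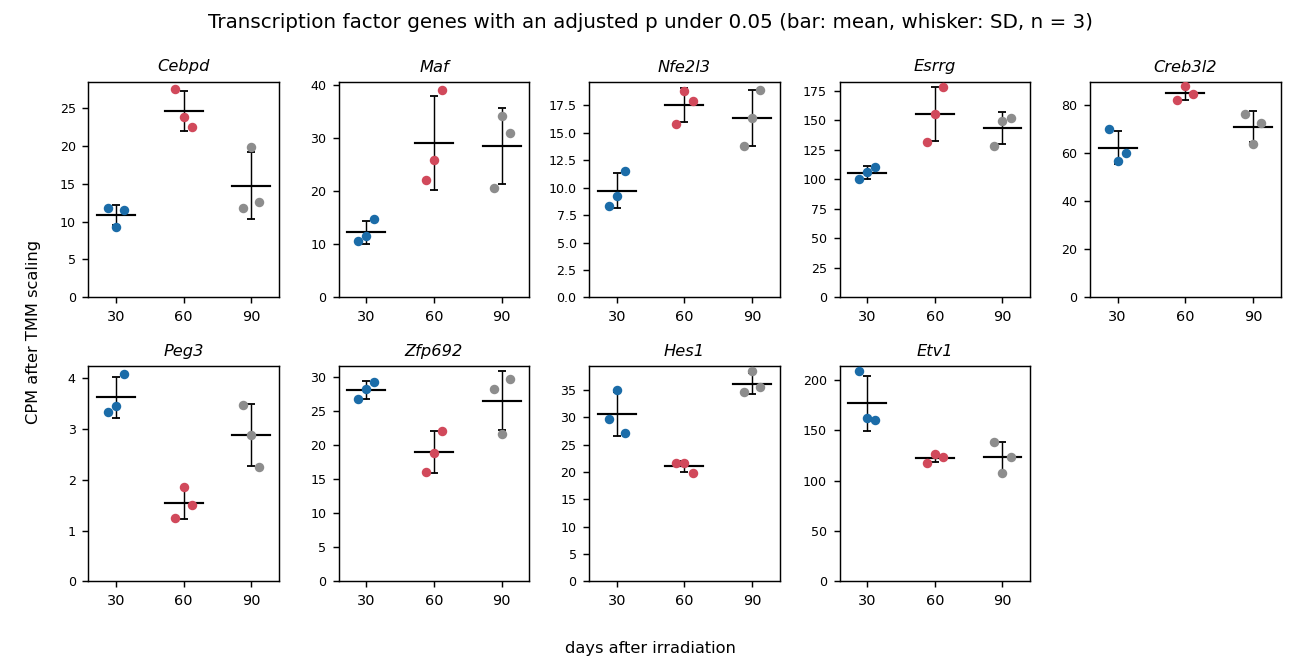
CPM of 9 transcription factor genes with an adjusted p under 0.05, by days after irradiation, with points for libraries, a bar for the mean and whiskers for the SD (n = 3). The top row shows 5 that rose; Peg3, Zfp692, Hes1 and Etv1 are lower at 60 than at 30 days, and Hes1 stands at a mean of 36.2 CPM at 90 days.

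Clock genes had more negative than positive fold changes. Of 19 tested 0 rose and 2 fell, 14 were negative, and the median log2 fold change was -0.205. Per2, a repressor of the core clock, had 39.2, 33.5 and 36.2 CPM at 30 days and 14.6, 17.3 and 26.3 CPM at 60 days (-0.90 ± 0.20, SE; adjusted p = 0.0473). Per3 had 104, 72.0 and 77.7 CPM against 44.9, 50.4 and 55.4 CPM (-0.75 ± 0.16, SE; adjusted p = 0.0340). Arntl and Dbp, which peak at opposite phases, had log2 fold changes of -0.06 (adjusted p = 0.98) and -0.12 (adjusted p = 0.77). Neither Per2 nor Per3 was called with library-size scaling, without 30-day sample 1 or 3, or without 60-day sample 1 or 2. The time of day at harvest cannot be told apart from the time point.

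Targets of p53 had a single call. Of 32 tested 0 rose and 1 fell, while 26 were negative, with a median log2 fold change of -0.123, and 11 were lower at an unadjusted p under 0.05. Over all 15224 genes, 905 were lower at that level. The p53 targets that fell numbered 4 with DESeq2, 3 with no filter on low counts and 2 with at least 10 counts in every sample or without 30-day sample 2. Cdkn1a, the cell cycle inhibitor p21, went from 25.1, 19.7 and 25 CPM to 11.5, 10.7 and 11.7 CPM (-1.04 ± 0.23, SE; adjusted p = 0.0412). All 60-day values were below all 30-day values, yet the call was lost under 9 of 15 alternatives, where the adjusted p reached 0.218 and the fold change stayed between -1.15 and -0.98. Members next in order of p were Btg2 (-0.43, adjusted p = 0.050), Sesn2 (-0.65, adjusted p = 0.10) and Bbc3, which codes for the death protein Puma (-0.85, adjusted p = 0.13).

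Of 40 proliferation genes, 0 rose and 0 fell by edgeR and by DESeq2, with 2 higher at an unadjusted p under 0.05. Their log2 fold changes were positive in 36 and had a median of 0.442, which was 0.141 without 30-day sample 1 and 0.196 without 60-day sample 3. Mki67, the Ki-67 gene, had 7.44, 15.6 and 15.3 CPM against 15.5, 11.7 and 28.4 CPM (adjusted p = 0.663), so the groups overlapped. Among 14 imprinted growth genes 0 rose and 2 fell, Peg3 and the long noncoding RNA Meg3 (5.81, 5.47 and 8.88 CPM against 3.11, 3.17 and 4.09 CPM; -0.96 ± 0.24, SE; adjusted p = 0.0459). The calls for Peg3 and Meg3 were lost under 7 and 8 alternatives.

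**Figure D4:**
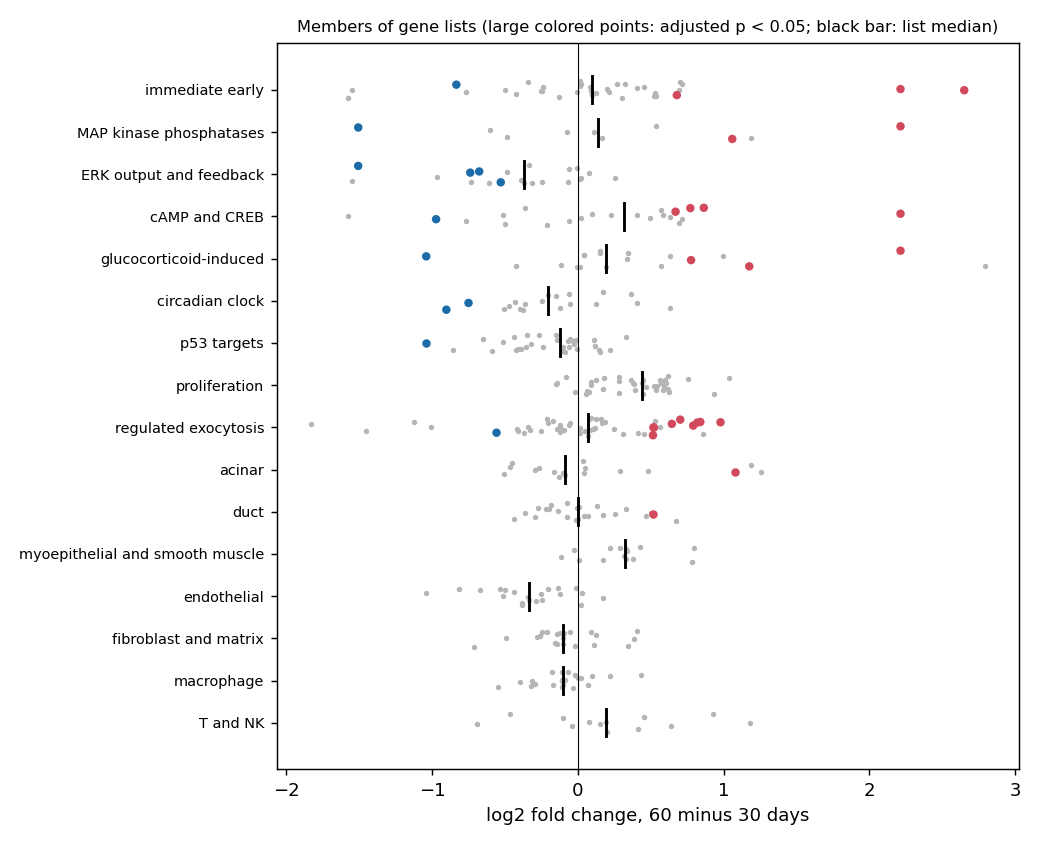
Each point is a tested member of a gene list, at its log2 fold change from 30 to 60 days on the x axis; colored points have an adjusted p under 0.05 and the black bar is the list's median. The medians of the ERK list (-0.372) and of proliferation (0.442) lie farthest out of those drawn, and only the ERK list of these has called members.

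Growth factors and their receptors changed beside the granular duct products, of which 16 of 25 tested rose and 0 fell, Egf among them. That count was 5 without 60-day sample 1, 9 with library-size scaling and 11 with limma-voom or without 60-day sample 2. The ErbB list of 13 genes had no other call than Egf, and of 12 FGF ligands and receptors 0 rose and 0 fell, with 2 higher and 1 lower at an unadjusted p under 0.05, and DESeq2 gave 1 fall. Ngfr, the low-affinity receptor of neurotrophins, went from 32.8, 57.1 and 56.5 CPM to 105, 117 and 112 CPM (1.18 ± 0.20, SE; adjusted p = 0.0134). It was the only call in the nerve and Schwann cell list, where 10 of 13 genes were negative with a median of -0.253. Without Ngfr the list summed to 180.6 to 186.4 CPM at 30 days and 168.8 to 179.2 CPM at 60 days, below every 30-day sum. The call was lost when any of the 60-day samples was left out (adjusted p up to 0.0776). Tgfb2 went from 56.3, 59.4 and 64.7 CPM to 84.6, 93.8 and 107 CPM (0.66 ± 0.12, SE; adjusted p = 0.00586) and was called in all alternatives. It was the only call among 27 genes of TGF-beta and BMP signalling. Fzd7, a Wnt receptor, was the only call among 19 Wnt genes, with 65.4, 63.4 and 63.9 CPM against 43.9, 50.2 and 50.2 CPM (-0.42 ± 0.10, SE; adjusted p = 0.0401), a call lost under 8 alternatives.

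Marker genes of cell types were summed in each library, which measures their RNA and not the number of cells. A sum follows its most abundant members, and Aqp5, given below, is a small part of the acinar sum. Acinar markers summed to 73880 to 130700 CPM at 30 days and 70400 to 90420 CPM at 60 days, with 30-day sample 1 highest. Of 17 tested 1 rose and 0 fell. The riser was Amy1, salivary amylase, which has near-identical relatives, with 6.52, 7.43 and 8.05 CPM against 13.1, 15.8 and 17.8 CPM (1.08 ± 0.15, SE; adjusted p = 0.000954). Aqp5, the water channel of the apical acinar membrane, had 523, 461 and 453 CPM against 400, 309 and 329 CPM, with no overlap and an adjusted p of 0.0580 (0.00461 to 0.378 over the alternatives, 5 of which called it). Duct markers summed to 2141 to 2211 CPM and 2193 to 2345 CPM. Of 24 tested 1 rose and 0 fell, Scnn1b, a subunit of the epithelial sodium channel, with 52.9, 68.5 and 75.7 CPM against 96.0, 95.9 and 89.6 CPM (0.51 ± 0.12, SE; adjusted p = 0.0288), a call lost under 6 alternatives.

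Markers of other cells had 0 calls by edgeR outside the nerve list, and limma-voom likewise gave 0. Endothelial genes were negative in 18 of 21, with a median of -0.334 and 6 lower at an unadjusted p under 0.05. Their sum was 211.7 to 233.5 CPM at 30 days and 187.0 to 190.5 CPM at 60 days, without overlap, in a list where neither edgeR nor DESeq2 called a gene. Sox18, a vascular factor, had 3.54, 4.40 and 5.03 CPM against 2.68, 3.08 and 1.67 CPM (adjusted p = 0.15). Myoepithelial and smooth muscle genes were positive in 12 of 14, with a median of 0.322 and 6 higher at an unadjusted p under 0.05. They summed to 396.0 to 557.8 CPM at 30 days and then 582.8 to 644.2 CPM at 60 days. The median was 0.179 without 30-day sample 1, whose sum was the lowest. Acta2, the contractile actin of these cells and a large part of the sums, had 132, 164 and 182 CPM against 210, 216 and 216 CPM (adjusted p = 0.172). DESeq2 called 1 gene of the list. Fibroblast sums of 832.3 to 1325 CPM and macrophage sums of 708.1 to 1192 CPM at 30 days enclosed those at 60 days, 897.3 to 1144 CPM and 893.8 to 947.4 CPM, and these lists had 3 genes and 1 gene at an unadjusted p under 0.05 and 0 calls by DESeq2.

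Markers of neighbouring tissues were low or varied between libraries. Sublingual or immature acinar genes, of which 5 of 12 passed the filter, summed to 147.5, 680.9 and 423.8 CPM at 30 days and 1134, 1142 and 461.4 CPM at 60 days, nearly all of it Smgc. By edgeR or DESeq2 0 genes of the list rose or fell, and 0 had an unadjusted p under 0.05. The defining adipocyte genes Adipoq, Plin1, Cidec, Lep and Retn, 11 of 13 skeletal muscle genes and 7 of 8 mast cell genes did not pass the filter. T cell markers summed to 8.22 to 15.3 CPM at 30 days and 13.6 to 14.3 CPM at 60 days. The part of these cells in the changes above was not tested.

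**Figure D5:**
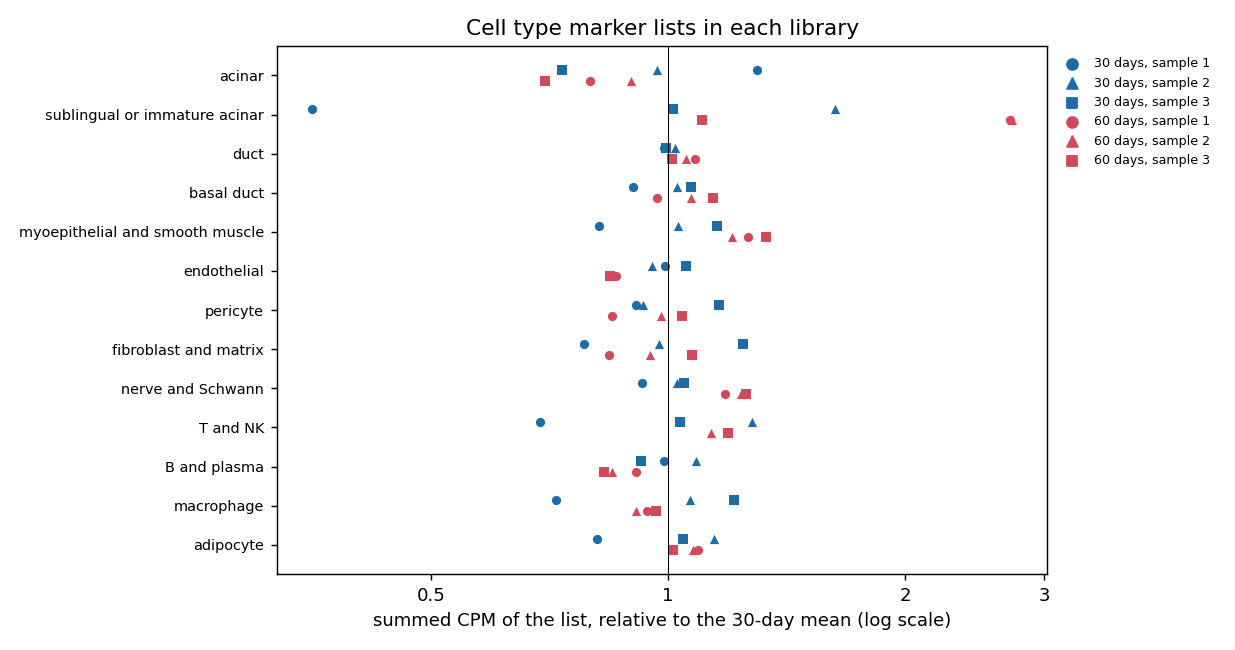
Summed CPM of each cell type's markers in the 6 libraries, divided by the mean of the 30-day libraries, on a log axis; colors mark days and symbols the sample number. Endothelial and B and plasma cell sums at 60 days lie left of all 30-day sums. Most of the B and plasma sum is the single gene Derl3, with 186 to 218 CPM at 30 days and 165 to 180 CPM at 60 days. In that list 0 genes had an unadjusted p under 0.05 by edgeR. Myoepithelial sums, of which Acta2 is a large part, and nerve sums at 60 days lie right of the 30-day sums. The other lists overlap, and without Ngfr the nerve sums at 60 days lie left.

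Housekeeping and metabolic lists had few calls. Of 83 genes of nuclear oxidative phosphorylation 0 rose and 0 fell by edgeR or DESeq2, 1 had an unadjusted p under 0.05, 66 were positive and the median was 0.0866, which turned to -0.0457 without 60-day sample 1. Of 12 genes of the mitochondrial genome 11 were negative, with a median of -0.259, and 1 fell, mt-Nd6 (950, 784 and 570 CPM against 464, 542 and 478 CPM; adjusted p = 0.0422), a call lost under 8 alternatives. Falls in the mitochondrial genome numbered 3 with DESeq2, 4 with no filter on low counts and 0 with limma-voom or library-size scaling. The gene lies on the strand opposite to most mitochondrial genes, and the strand setting of the counting is not known here. Endoplasmic reticulum folding genes numbered 26 with 0 calls by edgeR and 1 rise by DESeq2, and 7 were higher and 1 lower at an unadjusted p under 0.05. Single rises were Dnaja1 among 15 heat shock genes (0.49 ± 0.12, SE; adjusted p = 0.0340) and Sc5d among 18 of cholesterol synthesis (0.47 ± 0.10, SE; adjusted p = 0.0267). Txnip was the single rise in the antioxidant and Nrf2 list (0.55 ± 0.14, SE; adjusted p = 0.0473). That list had 18 genes tested and a median log2 fold change of 0.0576. The calls for Dnaja1, Sc5d and Txnip were lost under 4, 5 and 8 alternatives. Among 30 interferon-stimulated genes, 26 of glycolysis, 36 collagens, 13 keratins and 10 claudins there were 0 calls by edgeR and by DESeq2, and at an unadjusted p under 0.05 they had 4, 3, 3, 1 and 0 genes.

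Other genes were among the largest rises. Kcns3, a silent potassium channel subunit, went from 1.13, 1.13 and 1.78 CPM to 4.49, 5.88 and 3.59 CPM (1.77 ± 0.28, SE; adjusted p = 0.00219). Atp13a5, a P-type ATPase, went from 11.4, 13.2 and 14.6 CPM to 31.3, 37.9 and 40.9 CPM (1.49 ± 0.13, SE; adjusted p = 3.30e-06). B3gnt5, which extends the sugar chains of glycolipids, went from 3.62, 4.40 and 3.97 CPM to 8.55, 13.1 and 11.5 CPM (1.46 ± 0.19, SE; adjusted p = 0.000376). Klrg2 rose by 1.96 and Snhg11 by 1.53 on the log2 scale. Kcns3, Atp13a5, B3gnt5 and Snhg11 were called in all 15 alternatives and Klrg2 in the 14 in which it was tested. Chst13 and Ppp1r14d rose by 1.59 and 1.55, with calls lost under 3 and 9 alternatives. The pseudogenes Klk1b14-ps and Klk1b7-ps rose by 1.83 and 1.66, and their reads may belong to the kallikrein genes they resemble.

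The largest falls outside signalling were in enzymes. Folh1, a peptidase that trims glutamate, went from 8.51, 3.45 and 4.85 CPM to 1.08, 2.04 and 0.918 CPM (-2.05 ± 0.38, SE; adjusted p = 0.00992). Ass1, which joins citrulline and aspartate in arginine synthesis, went from 21.9, 16.3 and 19.6 CPM to 9.76, 7.87 and 9.55 CPM (-1.09 ± 0.21, SE; adjusted p = 0.0136). Ugt8a, which makes galactosylceramide, went from 12.8, 10.3 and 9.59 CPM to 4.49, 5.92 and 5.84 CPM (-1.0 ± 0.22, SE; adjusted p = 0.0218). Inmt, a methyltransferase, and Lonrf1 changed by -1.0 (adjusted p = 0.0230) and -1.03 (adjusted p = 0.0265). These 5 calls were all lost without 30-day sample 1, whose value was the highest or, for Inmt, the middle of its group. They were likewise all lost without 60-day sample 1, and those for Ugt8a, Inmt and Lonrf1 also under library-size scaling.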

How the data were processed

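Read counts per gene were deposited by the authors as whole numbers, not normalized. Per the submitters' processing notes, fastp, STAR, featureCounts and the mm10 build were used; versions, strand setting and annotation are not given in the sources used here, so reads of near-identical or overlapping genes may be split in unknown ways. Columns were matched to samples by day and number, and 3 columns that match no listed sample were not used. Symbols were found for 54409 identifiers, and positions are from GENCODE M21 (GRCm38).

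Genes were filtered with filterByExpr in edgeR 4.0.16 (minimum count 10), scaled with TMM and fitted with the robust quasi-likelihood model over all 9 libraries (R 4.3.3), with Benjamini-Hochberg adjustment over 15224 genes. CPM are the counts after TMM scaling to the library total. Lists are described by counts and medians, without set tests, and some genes are in several lists. Members, lists and alternatives were chosen with earlier results of these data known. Named genes are the 12 largest rises and 12 largest falls among calls with a mean of at least 1 CPM and no overlap (leaving out predicted genes and granular duct products), called transcription factors, up to 4 called members of each list (the 2 of smallest p in lists without a call), and a set of fixed genes. List members outside this rule, and genes said to be so, were chosen after their values were seen. Some genes that the rule names are not reported here. Alternatives used limma 3.58.1 and DESeq2 1.42.0, other scalings and filters, the 6 libraries alone, equal depth, single samples left out and a block. The tests were tested on simulated data. Replicates differed by more than sampling noise (chi-square per degree of freedom 9.56 to 33.5). Floors of 3 counts cover counting error only. Figures used matplotlib 3.10.9.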

Additional observations from a re-analysis of the deposited data

How the results depend on the processing

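Of the 238 calls (173 higher, 65 lower), 192 held in at least 8 of the 15 alternatives. No called gene changed sign, which refits of the same separated values could hardly have shown. Library-size scaling gave 90 calls (79 higher, 11 lower, which moves the share that is higher from 72.7% to 87.8%), DESeq2 376 (243 and 133), limma-voom 184 (135 and 49) and no filter on low counts 459 (302 and 157) of 27001 genes tested. DESeq2-type size factors gave 236, at least 10 counts in every sample 240, the 6 libraries alone 193 and equal depth 223. Leaving out a sample gave 73 to 244 calls, 65 to 164 higher and 8 to 80 lower, with the lowest of each without 60-day sample 2. Without 30-day samples 1, 2 and 3 there were 102, 132 and 147 calls, and without 60-day sample 1 182. Same-numbered samples did not deviate together (correlations of 0.0529, -0.00887 and 0.0841), so the numbers were not taken as pairs; a replicate block gave 270 calls (189 higher, 81 lower). The causes of these differences were not tested. With 3 libraries a day and 16541396 to 24880803 counts, a floor of 3 counts corresponds to 0.125 to 0.213 CPM after TMM scaling.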

Other observations

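Genes of regulated exocytosis, the fusion of secretory granules with the cell membrane, were listed after the values had been seen, and so were the lists that follow, which are given as description without a test. Of 50 exocytosis genes tested 9 rose and 1 fell, beside 1.14% and 0.427% of all genes, and the median log2 fold change was 0.0725. Stxbp6, which binds SNARE proteins, had 109, 114 and 114 CPM at 30 days and 197, 247 and 219 CPM at 60 days (0.98 ± 0.11, SE; adjusted p = 0.000135). Rab3a, a granule GTPase, went from 21.1, 21.2 and 17.5 CPM to 38.3, 34.5 and 34.1 CPM, and its partner Rph3al from 11.6, 16.6 and 15.8 CPM to 26.3, 26.5 and 25.1 CPM. Cpe, a carboxypeptidase that trims stored peptides, went from 22, 31.5 and 31.1 CPM to 48.4, 50.4 and 48.0 CPM. The calls for Stxbp6, Rab3a, Rph3al and Cpe held in all 15 alternatives. Unc13b and Cadps2, which prime granules, and the SNARE gene Snap23 rose by 0.65, 0.52 and 0.52, while the SNARE gene Vamp1 changed by -0.56. Without 30-day sample 1 the list had 4 rises and 0 falls, and without 60-day sample 2 likewise 4 and 0. The granular duct products rose in the same libraries, and the part of a shift in duct cells in these counts was not tested.

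Potassium channel genes numbered 44 tested, of which 3 rose and 0 fell, beside 1.14% and 0.427% of all genes. Kcnk5, a two-pore channel, went from 17.8, 26.5 and 20.7 CPM to 44.2, 39.7 and 48.6 CPM (1.03 ± 0.13, SE; adjusted p = 0.000371), and Kcnj16, an inward rectifier, from 24.2, 28.5 and 23.7 CPM to 38.3, 44.0 and 42.8 CPM (0.71 ± 0.11, SE; adjusted p = 0.00212). Of 36 adrenergic, muscarinic, purine and peptide receptor genes 3 rose and 1 fell. Adra1a, the alpha-1A adrenergic receptor, rose from 21.1, 25.6 and 28.3 CPM to 36.4, 41.0 and 40.1 CPM (0.65 ± 0.12, SE; adjusted p = 0.00557) while Adrb1 fell, and without 60-day sample 2 the receptor list had 1 rise and 0 falls. Of 110 genes of sugar chain synthesis and trimming 6 rose and 4 fell, with Hs3st1, a heparan sulfate sulfotransferase, at 12.5, 9.15 and 8.23 CPM against 24.9, 23.2 and 18.9 CPM. Leaving out any of the 30-day samples or 60-day sample 2 gave 2 to 5 rises and 0 to 2 falls in the sugar chain list. Of 219 solute carriers 5 rose and 4 fell, and Slc25a25, a mitochondrial ATP-Mg carrier that calcium regulates, went from 16.2, 19.9 and 18.9 CPM to 38.7, 28.8 and 39.4 CPM (0.96 ± 0.13, SE; adjusted p = 0.000766). Leaving out the same samples gave 2 or 3 rises and 0 to 3 falls among solute carriers, and DESeq2 gave 7 and 7.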
